A study of Mus musculus with 9 samples.

Results

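The genes described here encode plasma proteins of the complement and coagulation systems that are made mainly by the liver. The list holds 41 gene symbols in 3 classes: 16 complement components, 14 clotting factors (with kallikrein, kininogen and plasminogen) and 11 inhibitors and regulators of both systems. A gene was included when the array had a probe set, the group of short probes that reads a transcript, annotated to its symbol alone. Of several such probe sets, the one with the highest mean signal over the 9 arrays stood for the gene. This gave 38 genes of the 12476 measured and tested in all: 14 complement components, 14 clotting factors and 10 inhibitors. All 38 passed the filter on dim probe sets. C3 and Cpb2 had no probe set of their own here, and the probe set that reads C4b is shared with C4a and was left out of all counts.

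RNA came from the livers of 9 female Crlj:CD1(ICR) mice, an outbred stock, with 3 mice per group and 1 array per mouse. The mice were purchased at 9 weeks of age, held in quarantine for 1 week and then fed a powdered diet for 2 weeks. The control group received the diet with 0 ppm of either compound. The other groups received 5000 ppm permethrin, a pyrethroid insecticide, or 5000 ppm clofibrate, a fibrate drug that activates the nuclear receptor PPAR alpha. The design compares the early liver response to each compound with untreated liver, and the compounds with each other. Since whole liver was measured, fewer cells of a type and less RNA per cell cannot be told apart.

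Complement is a cascade of plasma proteases and pore-forming proteins. Lectins and C1q recognise a surface, the serine proteases C1r, C1s and the MASPs are activated in turn, they cleave C4 and C2, and the resulting convertase cleaves C3 and then C5. The fragment C5b gathers C6, C7, C8 and C9 into the membrane attack complex. Coagulation is likewise a chain of serine protease zymogens: the extrinsic arm starts with factor VII, the intrinsic arm with the contact factors and factors XI and IX, and both arms join at factor X, which with factor V turns prothrombin into thrombin. Thrombin converts fibrinogen, made of 3 chains, into fibrin, and plasmin dissolves it. Serpins, the protein C system and complement regulators hold both cascades in check. Hepatocytes secrete most of these proteins, and several of them are acute phase proteins whose synthesis changes during inflammation.

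Before the array values, the promoters of 6 genes are shown, because the adjacent pair C1s1 and C1ra and the gene F7 (with F11) passed for clofibrate in every alternative tried, and the 3 fibrinogen genes are transcribed from 1 locus. Each sequence covers the 250 bases before the transcription start in RefSeq's annotation of GRCm38.p6, 5′ to 3′ on the gene's own strand. Capitals mark matches on either strand to 4 motifs. These are the HNF1 half-site GTTAAT, which reads ATTAAC on the opposite strand, the direct repeat DR1 bound by HNF4 and PPAR dimers (a pair of AGGNCA copies with a single base between them), the C/EBP-type sequence TTGCNNAA, and the IL-6 response element CTGGGAA of acute phase genes. The regions are chr6:124542360-124542609 on the minus strand for C1s1 and chr6:124512371-124512620 on the plus strand for C1ra. F7 is at chr8:13025784-13026033 on the plus strand, Fga at chr3:83025903-83026152 on the plus strand, Fgb at chr3:83049864-83050113 on the minus strand and Fgg at chr3:83007474-83007723 on the plus strand.
C1s1: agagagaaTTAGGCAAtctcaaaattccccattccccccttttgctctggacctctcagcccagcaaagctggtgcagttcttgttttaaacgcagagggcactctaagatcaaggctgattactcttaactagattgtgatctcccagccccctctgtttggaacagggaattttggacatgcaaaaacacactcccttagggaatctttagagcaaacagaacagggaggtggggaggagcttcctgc
C1ra: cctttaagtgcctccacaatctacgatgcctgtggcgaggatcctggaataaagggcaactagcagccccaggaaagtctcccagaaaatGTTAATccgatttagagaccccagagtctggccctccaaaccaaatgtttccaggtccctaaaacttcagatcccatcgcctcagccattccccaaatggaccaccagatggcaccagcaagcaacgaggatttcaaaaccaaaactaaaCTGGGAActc
F7: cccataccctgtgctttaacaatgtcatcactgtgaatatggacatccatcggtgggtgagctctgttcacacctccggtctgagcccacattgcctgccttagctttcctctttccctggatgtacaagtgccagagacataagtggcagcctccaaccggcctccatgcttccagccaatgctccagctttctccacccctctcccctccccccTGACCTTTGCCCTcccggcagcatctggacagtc
Fga: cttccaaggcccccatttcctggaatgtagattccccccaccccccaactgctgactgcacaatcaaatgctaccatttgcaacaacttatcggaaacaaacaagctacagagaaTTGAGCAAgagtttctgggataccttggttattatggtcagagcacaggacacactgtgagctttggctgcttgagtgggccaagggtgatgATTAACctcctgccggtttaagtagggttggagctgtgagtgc
Fgb: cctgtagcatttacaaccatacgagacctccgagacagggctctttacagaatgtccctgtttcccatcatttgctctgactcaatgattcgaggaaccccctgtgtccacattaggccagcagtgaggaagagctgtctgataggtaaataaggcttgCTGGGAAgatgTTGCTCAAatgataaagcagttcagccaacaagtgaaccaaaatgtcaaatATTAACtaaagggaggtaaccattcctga
Fgg: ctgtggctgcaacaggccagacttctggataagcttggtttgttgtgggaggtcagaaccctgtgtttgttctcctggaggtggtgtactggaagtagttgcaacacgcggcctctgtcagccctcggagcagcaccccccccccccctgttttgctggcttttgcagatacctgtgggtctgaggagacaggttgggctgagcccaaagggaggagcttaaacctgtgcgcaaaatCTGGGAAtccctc
None of the capitalised matches overlapped another. The C1s1 window shown held a C/EBP-type match alone. RefSeq has another C1s1 start, for which the window is chr6:124542322-124542571 and held no match. The C1ra window held an HNF1 half-site and an IL-6 element. F7 held the DR1 match, on the minus strand at positions -34 to -22 counted from -1 at the base before the start. Fga held an HNF1 half-site and a C/EBP-type match, Fgb held these and an IL-6 element, and Fgg an IL-6 element alone.

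Promoter entries were present for 30 of the 38 genes. The HNF1 half-site was found in 10 of the 30 (33.3%), against 7.49% of all 27025 genes with an entry: C1ra, C8a, C8b, Hc, F13b, Fga, Fgb, C4bp, Proz and Vtn. The C/EBP-type sequence was found in 7 (23.3%, against 10.8%), among them F9, F11, Klkb1 and C9. The IL-6 element was found in 5 (16.7%, against 10.4%) and DR1 in F7 alone (3.33%, against 0.400%). A match says only that these letters occur in the window.

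Signals are in the authors' linear intensity units, scaled to the same trimmed mean on every array. Differences between groups are on the scale of log2(signal + 3.35) with their standard error, and means carry the standard deviation, with n = 3 arrays per group. Adjusted p-values are from limma with Benjamini-Hochberg adjustment, and a gene is called when this value is below 0.05. The arrays differed at the top of their range: their maximum ran from 14387 to 14899 for control mice, from 12792 to 13409 for permethrin mice and from 10714 to 12058 for clofibrate mice. A control probe set for ribosomal RNA read 122, 161 and 194 in the control mice. It read 59.2, 33.4 and 95.1 with permethrin and 63.3, 47.1 and 68.6 with clofibrate. The part of this difference in the results was not tested. The hybridization controls, which are spiked-in transcripts, averaged 10.13 ± 0.16, 9.98 ± 0.18 and 9.79 ± 0.12 (log2) in these groups. Scaling to them instead raises the difference of the median gene by 0.15 with permethrin and by 0.33 with clofibrate. It leaves each gene's distance from the median gene as it was, so that distance is given beside the difference itself.

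With clofibrate most of these genes fell. Of the 38, 28 were called lower (73.7%) and 0 higher by limma, where 3.8% of all genes tested were called lower and 3.22% higher. The sign was negative for 37 of 38, Hc being the exception, and 31 of 38 when scaled to the hybridization controls. The median difference was -0.47, against -0.044 for all genes, which places these genes 0.43 below the median gene on the log2 scale. In 34 of the 38 (89.5%) all 3 clofibrate arrays lay below all 3 control arrays, against 15.6% of all genes, and in 0 they all lay above, against 11.6%. The count depends on the scaling: 4 genes (C1s1, C1ra, F7 and F11) were called lower after scaling to the hybridization controls and 16 after quantile normalization. It was 13 without control replicate 3 or without clofibrate replicate 3 and 18 without control replicate 1. Calls that held with each clofibrate or control array left out were those of C1s1, C1ra, Masp1, Mbl2, C8g, F5, F7, F11, Cfi and Serpinf2, 10 of the 28. The other 18 were lost in 1 to 5 of these 6 fits, with adjusted p up to 0.179.

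With permethrin all 38 differences were negative, 35 of 38 when scaled to the hybridization controls, but few passed the test. C1s1, C8g, F5, F7 and Serpinf2 were called lower, 5 of 38 (13.2%) against 0.85% of all genes, and 0 were called higher by limma, against 1.28%. At an unadjusted p under 0.05, 31 of 38 were lower with permethrin, against 8.89% of all genes, and 0 higher, against 6.89%. With clofibrate 33 were lower at that threshold, against 12% of all genes, and 0 higher, against 9.03%. The median difference was -0.36, against -0.045 for all genes, which is 0.32 below the median gene. In 30 of 38 genes (78.9%) the permethrin arrays all lay below the control arrays, against 13.2% of all genes, and in 0 they all lay above, against 9.52%. The count called lower was 3 without control replicate 1 or 3, 2 after scaling to the hybridization controls and 13 when permethrin and control arrays were fitted alone. Both treated groups were compared with the same 3 control mice, so these counts are not independent of each other.

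**Figure D1:**
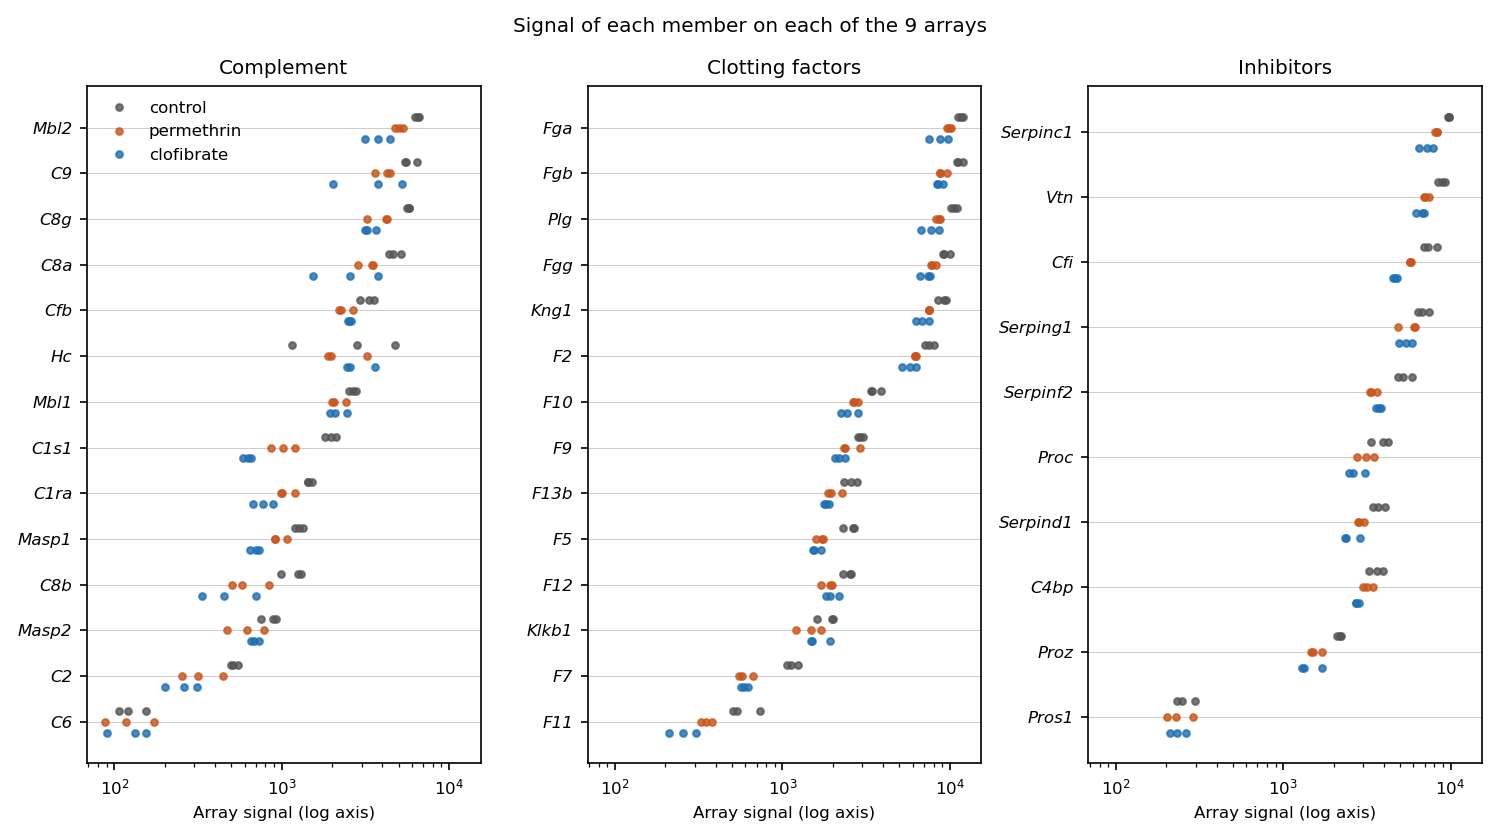
Signal of each of the 38 genes on every array, on a log axis, with 1 point per mouse and colours for the control, permethrin and clofibrate groups; levels of different genes are not comparable because each probe set has its own response. The clofibrate points lie below the control points without overlap in 34 of 38 genes, and the permethrin points in 30.

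**Figure D2:**
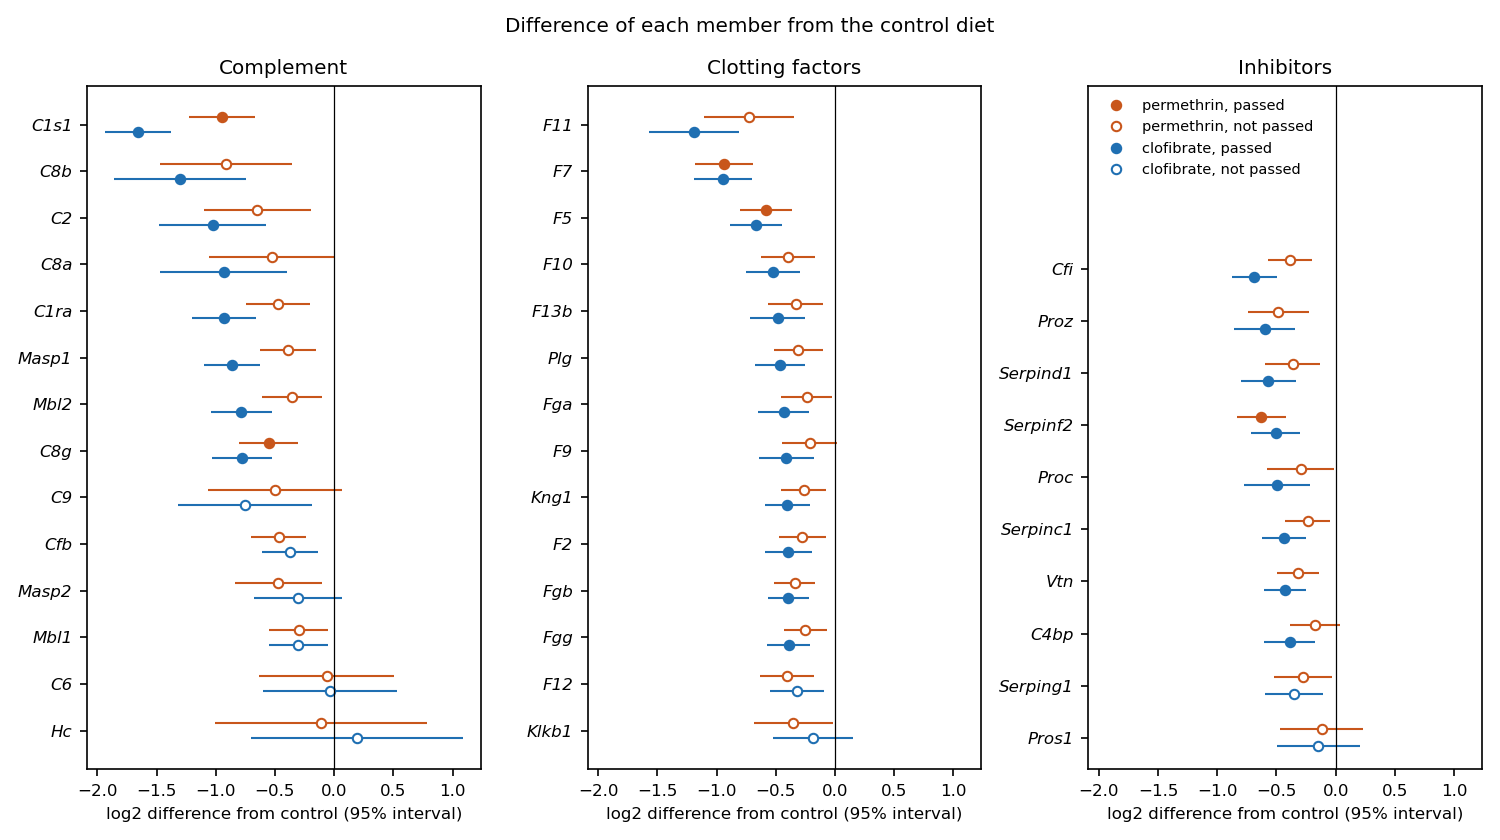
Difference from the control group on the log2(signal + 3.35) scale for each gene, with 95% confidence intervals, for permethrin and for clofibrate, ordered within complement, clotting factors and inhibitors; filled points passed the test and open points did not. C1s1 shows the largest fall with clofibrate (-1.66), and Hc (0.19) alone lies above 0 with clofibrate.

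By class, complement showed the widest range and clotting factors the highest share of calls with clofibrate. The median clofibrate difference was -0.78 in complement, -0.42 in clotting factors and -0.47 in inhibitors. It was called lower for 8 of 14, 12 of 14 and 8 of 10 genes, in that order. With permethrin the medians were -0.47, -0.34 and -0.31, with 2 of 14, 2 of 14 and 1 of 10 called lower. Relative to the median gene, the clofibrate medians were -0.74, -0.38 and -0.42 and the permethrin medians -0.43, -0.29 and -0.26.

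How bright a probe set is moves with these results. Among the other genes with a mean signal above 5000, 54 of 140 (38.6%) were called lower with clofibrate, with a median of -0.32, beside 10 of the 11 complement and coagulation genes in that range, with a median of -0.43. Between 1000 and 5000 the other genes had 134 of 954 called lower (14.0%) and a median of -0.086, beside 13 of 19 and -0.51. Between 100 and 1000 the values were 193 of 4977 (3.88%) and -0.012, beside 5 of 8 and -0.91. With permethrin, 2 of 140 other genes above 5000 (1.43%), 32 of 954 from 1000 to 5000 (3.35%) and 47 of 4977 from 100 to 1000 (0.944%) were called lower. The medians of these other genes were -0.14, -0.023 and -0.0076. Beside them stood 0 of 11, 4 of 19 and 1 of 8 complement and coagulation genes, with medians of -0.28, -0.40 and -0.56. The distance from other genes of like brightness was smallest for the brightest genes, among them fibrinogen, plasminogen and antithrombin. The part of this brightness pattern in the calls was not tested.

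**Figure D3:**
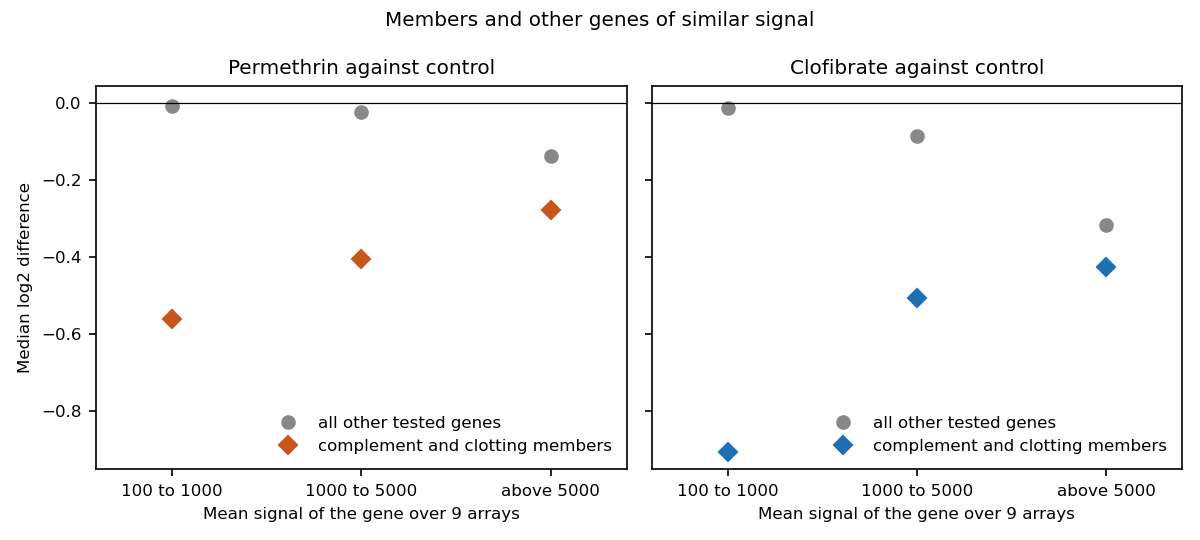
Median log2 difference from control for complement and coagulation genes and for all other genes, in 3 ranges of mean signal, for permethrin and clofibrate. With clofibrate the other genes go from -0.012 in the range of 100 to 1000 to -0.32 above 5000, while the complement and coagulation genes go from -0.91 to -0.43.

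The initiating proteases of complement held the largest fall of all 38 genes. C1s1, the protease C1s that cleaves C4 and C2, read 1822, 2110.0 and 1969.8 in the control livers, 861, 1012 and 1203 with permethrin and 654, 626 and 584 with clofibrate. The 3 groups did not overlap, and clofibrate was lowest. The difference from control was -1.66 ± 0.13 with clofibrate (adjusted p = 3.93e-05), a fall of 3.15-fold. With permethrin it was -0.95 ± 0.13 (adjusted p = 0.00395). C1ra, the protease C1r that activates C1s, read 1439.7, 1441 and 1523 in the control livers, 987, 999 and 1199 with permethrin and 670.0, 768 and 881 with clofibrate. It showed the same order of groups without overlap. It fell with clofibrate (-0.93 ± 0.12, adjusted p = 0.00126), while the permethrin difference of -0.47 ± 0.12 (adjusted p = 0.0944) did not pass the test. Both genes have close relatives in the mouse genome, C1s2 and C1rb, whose transcripts the same probes could bind.

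Of the 4 lectin arm genes, Masp1 and Mbl2 passed with clofibrate and 0 passed with permethrin by limma. Masp1, a protease that travels with mannose-binding lectin, read 1338, 1267 and 1198 in the control livers, 913, 1076 and 912 with permethrin and 733, 704 and 648 with clofibrate. The groups again did not overlap, and clofibrate was lowest. It fell with clofibrate (-0.87 ± 0.11, adjusted p = 0.00085), and the permethrin difference was -0.39 ± 0.11 (adjusted p = 0.11). This rests on the brightest probe set of Masp1: its other tested probe sets differed by -0.40 to -0.10 with clofibrate and none was called. Mbl2, a mannose-binding lectin, read 6255, 6544 and 6588 in the control livers, 5341, 5039 and 4770.3 with permethrin and 3745, 4461 and 3157 with clofibrate. All treated arrays lay below all controls, with a clofibrate difference of -0.78 ± 0.12 (adjusted p = 0.00262) and a permethrin difference of -0.36 ± 0.12 (adjusted p = 0.189). The other lectin, Mbl1, was not called in either comparison: its means were 2657 ± 121 (control), 2165 ± 228 (permethrin) and 2161 ± 269 (clofibrate). Masp2, the protease that cleaves C4 and C2 in the lectin pathway, was not called either, at -0.47 ± 0.17 (adjusted p = 0.232) with permethrin and -0.31 ± 0.17 (adjusted p = 0.368) with clofibrate.

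C2 and factor B supply the catalytic subunits of the 2 C3 convertases, and their genes lie side by side on chromosome 17. C2 read 499, 511 and 546 in the control livers, 253, 448 and 314 with permethrin and 310.3, 199 and 262 with clofibrate. Treated and control arrays did not overlap, and permethrin replicate 2 was the highest treated array. The clofibrate difference was -1.02 ± 0.21 (adjusted p = 0.0146) and the permethrin difference -0.65 ± 0.21 (adjusted p = 0.175). Cfb, which encodes factor B, had means of 3283 ± 314 (control), 2374 ± 265 (permethrin) and 2525 ± 55.5 (clofibrate). Its differences of -0.47 ± 0.11 (adjusted p = 0.0575) and -0.37 ± 0.11 (adjusted p = 0.0678) just missed the threshold, although no treated array reached the lowest control. The probe set shared by C4a and C4b, which is no value of either gene alone, read 5829 ± 272 (control), 4759.8 ± 954 (permethrin) and 4625 ± 646 (clofibrate) and was not called (adjusted p = 0.387 and 0.234).

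Among the terminal components the C8 chains passed with clofibrate and Hc, C6 and C9 did not. C8 is a complex of an alpha, a beta and a gamma chain, and all 3 chains fell with clofibrate. C8a read 4599, 4388 and 5157 in the control livers, 3535, 3448 and 2872 with permethrin and 3748, 1546 and 2565 with clofibrate. C8b read 997, 1248 and 1308 in the control livers, 836, 577 and 501 with permethrin and 705, 335 and 449.5 with clofibrate. In both, clofibrate replicate 2 was the lowest array and clofibrate replicate 1 the highest of its group, yet no treated array reached the lowest control. The clofibrate differences were -0.93 ± 0.24 (adjusted p = 0.0481) for C8a and -1.31 ± 0.25 (adjusted p = 0.0122) for C8b. Permethrin gave -0.52 ± 0.24 (adjusted p = 0.374) and -0.91 ± 0.25 (adjusted p = 0.118), neither of which passed. C8g, the small chain of the lipocalin family, read 5745, 5735 and 5644 in the control livers, 4276, 4229 and 3249 with permethrin and 3215, 3649 and 3135 with clofibrate, with treated arrays all below controls. It fell in both comparisons, at -0.55 ± 0.11 (adjusted p = 0.0369) with permethrin and -0.78 ± 0.11 (adjusted p = 0.00236) with clofibrate. The permethrin call of C8g did not hold in 5 of the 6 fits that left out 1 permethrin or control array (adjusted p up to 0.139), and the clofibrate call of C8a in 5 of the 6 that left out 1 clofibrate or control array (up to 0.146).

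C9, which polymerises into the pore, read 5526, 6419 and 5433 in the control livers, 3614, 4430.0 and 4278 with permethrin and 5221, 2036 and 3767 with clofibrate. C9 and Hc are given by array because of their spread, a choice made after their values were seen. Clofibrate replicate 1 lay just below the lowest control array, replicate 2 far below, and the difference of -0.75 ± 0.26 (adjusted p = 0.127) was not called; with permethrin it was -0.50 ± 0.26 (adjusted p = 0.436). Hc, the mouse gene for C5, read 1149, 2804 and 4738 in the control livers, 1904, 3249 and 1959.6 with permethrin and 3620.2, 2455 and 2561 with clofibrate. Its control mice alone spanned the full range of all 9 arrays, a coefficient of variation of 62.0%, and the groups overlapped. The intervals of its differences, -1.0 to 0.78 with permethrin and -0.70 to 1.09 with clofibrate, leave either direction possible. C6 had means of 128 ± 24.8 (control), 125 ± 42.5 (permethrin) and 126 ± 33.0 (clofibrate), with 95% intervals of -0.63 to 0.50 and -0.61 to 0.53.

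**Figure D4:**
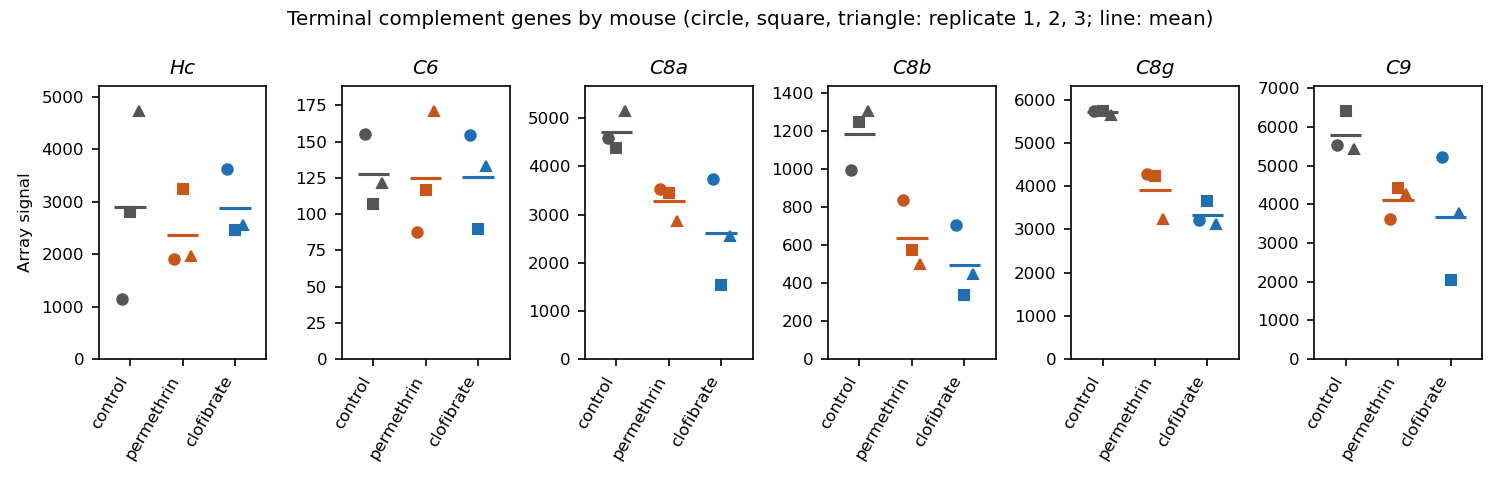
Signal on every array, on a linear axis from 0, of the terminal complement genes Hc (C5), C6, C8a, C8b, C8g and C9, with circles, squares and triangles for replicates 1, 2 and 3 and a line for each group's mean. C8a, C8b and C9 share the order of the clofibrate mice, replicate 2 lowest and replicate 1 highest, and the Hc controls run from 1149 to 4738.

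Among clotting factors, F11 and F7 had the largest clofibrate differences. F7, the protease that starts the extrinsic arm with tissue factor, read 1124, 1065 and 1236 in the control livers, 663, 575 and 551 with permethrin and 586, 619 and 562 with clofibrate. The treated groups overlapped each other and lay below the controls without overlap. The difference from control was -0.93 ± 0.11 (adjusted p = 0.00173) with permethrin and -0.95 ± 0.11 (adjusted p = 0.000622) with clofibrate, and the difference between the treated groups was 0.014 ± 0.11 with a 95% interval of -0.23 to 0.26. F11, a protease of the intrinsic arm, read 506, 536 and 734 in the control livers, 382, 352 and 324 with permethrin and 255, 306 and 210.2 with clofibrate. The groups did not overlap, permethrin lying between control and clofibrate. It fell with clofibrate (-1.19 ± 0.17, adjusted p = 0.00218), while permethrin, at -0.73 ± 0.17 (adjusted p = 0.0687), did not pass.

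In the common pathway the differences were smaller. F5, the cofactor of factor X, read 2630.4, 2288 and 2662 in the control livers, 1577, 1732 and 1749 with permethrin and 1691, 1547 and 1525 with clofibrate. The treated arrays lay together below the controls. Its differences were -0.58 ± 0.099 (adjusted p = 0.014) and -0.67 ± 0.099 (adjusted p = 0.00258). A dimmer probe set of F5 was not called (adjusted p = 0.125 and 0.111), and the permethrin call did not hold without control replicate 1, control replicate 3 or permethrin replicate 1 (adjusted p up to 0.0825). F10, the protease at which both arms meet, read 3399, 3443 and 3871 in the control livers, 2824, 2626 and 2667 with permethrin and 2231, 2825 and 2427 with clofibrate. No treated array reached the controls, and F10 fell with clofibrate (-0.52 ± 0.10, adjusted p = 0.0146); the permethrin difference of -0.40 ± 0.10 (adjusted p = 0.0967) did not pass. F2, prothrombin, had means of 7546 ± 439 (control), 6232 ± 65.0 (permethrin) and 5757 ± 532 (clofibrate) and fell with clofibrate (-0.39 ± 0.089, adjusted p = 0.0256), beside -0.27 ± 0.089 (adjusted p = 0.186) with permethrin.

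F9, the intrinsic protease lost in haemophilia B, read 3031, 2820.0 and 2906 in the control livers, 2360.3, 2897 and 2328 with permethrin and 2368, 2056 and 2173 with clofibrate. Permethrin replicate 2 lay within the control range, and the clofibrate arrays all lay below it. The clofibrate difference of -0.41 ± 0.11 (adjusted p = 0.0475) was near the threshold and did not hold in 5 of the 6 fits that left out 1 clofibrate or control array (adjusted p up to 0.163). F13b, the carrier subunit of the enzyme that crosslinks fibrin, read 2324, 2565 and 2803 in the control livers, 2269, 1959 and 1879.7 with permethrin and 1820.1, 1895 and 1775 with clofibrate. Here too the groups did not overlap with control, and clofibrate passed at -0.48 ± 0.11 (adjusted p = 0.0217), while permethrin gave -0.33 ± 0.11 (adjusted p = 0.175).

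Fibrinogen, the substrate of thrombin, is the most abundant product of the clotting pathway in plasma, and its 3 chains all fell with clofibrate. Fga read 11744, 11229 and 12058 in the control livers, 9626, 10196 and 9851 with permethrin and 7502, 9786 and 8793 with clofibrate. Fgb read 11061, 11126 and 11979.9 in the control livers, 8747, 9563 and 8727 with permethrin and 8342, 8552 and 9134 with clofibrate. Fgg read 9189, 9162 and 10088 in the control livers, 7768, 8248 and 7854 with permethrin and 6678, 7596 and 7439 with clofibrate. In each chain the treated arrays all lay below the controls, and in Fgg the clofibrate arrays also lay below the permethrin arrays. The clofibrate differences were -0.43 ± 0.097 (adjusted p = 0.0242), -0.39 ± 0.079 (adjusted p = 0.0144) and -0.39 ± 0.083 (adjusted p = 0.0189) for Fga, Fgb and Fgg. These calls did not hold in 4, 1 and 3 of the 6 fits that left out 1 clofibrate or control array. Over all 22 alternatives, these fits included, they were lost in 11, 6 and 9. The smallest differences there were -0.061, -0.017 and -0.056. With permethrin the differences were -0.24 ± 0.097 (adjusted p = 0.297), -0.34 ± 0.079 (adjusted p = 0.0645) and -0.25 ± 0.083 (adjusted p = 0.192). All 3 genes are in the brightest range, where the median of other genes was -0.32 with clofibrate and -0.14 with permethrin.

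Plg, the precursor of plasmin, read 10644, 10159 and 11020.1 in the control livers, 8254, 8759 and 8678 with permethrin and 6766, 8669.8 and 7757 with clofibrate. It fell with clofibrate (-0.46 ± 0.095, adjusted p = 0.0163), with all treated arrays below all controls, beside -0.31 ± 0.095 (adjusted p = 0.163) with permethrin. Of the contact factors, 1 of 3 passed. Kng1, kininogen, from which kallikrein releases bradykinin, had means of 9061 ± 521 (control), 7533 ± 37.4 (permethrin) and 6871 ± 607 (clofibrate) and fell with clofibrate (-0.40 ± 0.087, adjusted p = 0.0202). F12, factor XII, had treated arrays all below controls but passed in neither comparison, at -0.40 ± 0.10 (adjusted p = 0.0886) and -0.32 ± 0.10 (adjusted p = 0.108). Klkb1, plasma kallikrein, overlapped with control in both groups, at -0.35 ± 0.15 (adjusted p = 0.336) and -0.18 ± 0.15 (adjusted p = 0.58).

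Among the regulators of complement, Cfi had the largest clofibrate difference. Cfi, factor I, the protease that degrades C3b and C4b, read 7385, 6931 and 8283 in the control livers, 5691, 5835 and 5743 with permethrin and 4666, 4554 and 4786 with clofibrate. The 3 groups did not overlap. It fell with clofibrate (-0.69 ± 0.085, adjusted p = 0.000826), and the permethrin difference just missed the threshold at -0.38 ± 0.085 (adjusted p = 0.0505). C4bp, the cofactor of factor I on C4b, read 3254, 3655 and 3964 in the control livers, 3190.2, 3008 and 3418 with permethrin and 2846, 2708 and 2722 with clofibrate. The clofibrate arrays lay below all others, while permethrin replicate 3 lay within the control range. Its clofibrate difference was -0.39 ± 0.097 (adjusted p = 0.0397), and its permethrin difference -0.17 ± 0.097 (adjusted p = 0.473). The clofibrate call of C4bp did not hold in 4 of the 6 fits that left out 1 clofibrate or control array (adjusted p up to 0.148). Vtn, vitronectin, which binds terminal complexes and the serpin PAI-1, read 8875, 8459 and 9310.2 in the control livers, 6905, 7467 and 7046 with permethrin and 6198, 6927 and 6722 with clofibrate. Its treated arrays all lay below controls, with a clofibrate difference of -0.43 ± 0.081 (adjusted p = 0.0108) and a permethrin difference of -0.31 ± 0.081 (adjusted p = 0.0896). A dimmer probe set of Vtn was called in both comparisons (adjusted p = 0.0138 with permethrin and 0.00394 with clofibrate).

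The serpins inhibit the proteases above by forming covalent complexes with them. Serpinf2, antiplasmin, read 5179.8, 4866 and 5898 in the control livers, 3353, 3299 and 3638 with permethrin and 3582, 3756 and 3854 with clofibrate. It was the only inhibitor called with permethrin, at -0.63 ± 0.094 (adjusted p = 0.00722), and the clofibrate difference was -0.51 ± 0.094 (adjusted p = 0.00935); treated arrays all lay below controls. Serpinc1, antithrombin, read 9749, 9739 and 9652 in the control livers, 8306, 8327 and 8086 with permethrin and 6446, 7879 and 7231 with clofibrate. Its controls lay close together and above every treated array, and the clofibrate difference was -0.44 ± 0.085 (adjusted p = 0.0117), beside -0.24 ± 0.085 (adjusted p = 0.233) with permethrin. Serpind1, heparin cofactor II, read 3706, 3435 and 4073 in the control livers, 2849, 3035 and 2810.0 with permethrin and 2346, 2858 and 2367 with clofibrate. It had the same order without overlap with control, at -0.57 ± 0.11 (adjusted p = 0.00927) with clofibrate and -0.36 ± 0.11 (adjusted p = 0.131) with permethrin. Serping1, the C1 inhibitor, which blocks C1r, C1s and the MASPs, had means of 6879 ± 542 (control), 5693 ± 702 (permethrin) and 5386 ± 464 (clofibrate) and passed in neither comparison, at -0.28 ± 0.11 (adjusted p = 0.291) and -0.35 ± 0.11 (adjusted p = 0.0988).

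The protein C system inactivates factors V and VIII. Proc, protein C, read 4258, 3333 and 3927 in the control livers, 3141, 3488 and 2747 with permethrin and 2460.4, 3085 and 2622 with clofibrate. Permethrin replicate 2 lay above the lowest control, while all clofibrate arrays lay below it. The clofibrate difference was -0.49 ± 0.13 (adjusted p = 0.0475) and did not hold in 4 of the 6 fits that left out 1 clofibrate or control array (adjusted p up to 0.179); permethrin gave -0.30 ± 0.13 (adjusted p = 0.336). Pros1, protein S, the cofactor of protein C, had means of 259.9 ± 33.2 (control), 240.4 ± 43.6 (permethrin) and 234 ± 25.7 (clofibrate) and overlapped with control in both groups, with intervals of -0.47 to 0.23 and -0.49 to 0.20. Proz, protein Z, the cofactor of a serpin that inhibits factor X, read 2223, 2095 and 2192 in the control livers, 1503, 1699.7 and 1457 with permethrin and 1695, 1299 and 1327 with clofibrate. Treated arrays lay below controls, at -0.60 ± 0.12 (adjusted p = 0.0127) with clofibrate and -0.48 ± 0.12 (adjusted p = 0.0738) with permethrin, though a second probe set of Proz was not called with clofibrate (adjusted p = 0.347).

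Set against each other at the same dose and time, the 2 compounds differed by test in 1 of these genes. C1s1 was higher with permethrin than with clofibrate (0.71 ± 0.13, adjusted p = 0.0347), 1 of 38 genes (2.63%) against 0.473% of all genes, and 0 were called lower by limma, against 0.265%. At an unadjusted p under 0.05, 8 were higher, against 6.59% of all genes, and 0 lower, against 6.44%. The C1s1 call was lost without permethrin replicate 2 or 3 and without clofibrate replicate 2 or 3 (adjusted p up to 0.162), and under the replicate block. It was also lost with cyclic loess, the hybridization controls, no filter, no intensity trend and the 2 groups alone. In all it was lost in 10 of 22 alternatives (adjusted p up to 0.234). Over the 38 genes the median difference of permethrin from clofibrate was 0.14, against -0.0051 for all genes, and 31 were above 0. Under scaling to the hybridization controls 17 were above 0 and the median was -0.043, still 0.15 above the median gene. Brightness moved with this difference too. Other genes with a mean signal above 5000 had a median of 0.18, beside 0.14 for the 11 complement and coagulation genes in that range. From 1000 to 5000 the medians were 0.066 and 0.15, and from 100 to 1000 -0.00092 and 0.20. The part of brightness in the difference between the compounds was not tested. In 10 of 38 genes all permethrin arrays lay above all clofibrate arrays, against 9.08% of all genes: C1ra, C1s1, Masp1, Mbl2, F11, Fgg, Kng1, C4bp, Cfi and Serpinc1. In 0 they all lay below, against 9.03%. Masp1 came nearest the threshold after C1s1, at 0.47 ± 0.11 (adjusted p = 0.087).

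Where no difference between the compounds was called, the 95% intervals show how large it could still be. Each interval is for 1 gene and is not adjusted for the number of genes tested. It can therefore exclude 0 in a gene that was not called. The lowest bound was that of Hc, at -1.20. For C1ra the interval was 0.19 to 0.73, for Mbl2 0.17 to 0.68 and for F11 0.086 to 0.84. In F5 and Fgb it was narrower, -0.13 to 0.30 and -0.12 to 0.23. Serpinf2 went the other way, at -0.12 ± 0.094 with an interval of -0.33 to 0.084. By class the median was 0.32 in complement, 0.13 in clotting factors and 0.16 in inhibitors.

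Mouse by mouse, the lower level was seen in all 6 treated livers. The median distance of the 38 genes from the control mean was -0.38, -0.30 and -0.40 in the permethrin mice and -0.53, -0.44 and -0.45 in the clofibrate mice. It was -0.032, -0.048 and 0.075 in the control mice. In each clofibrate mouse 36 of 38 genes lay below the control mean, and in the permethrin mice 38, 37 and 36. In the control mice 26, 23 and 6 of the 38 lay below it. The same count over all genes was not made.

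**Figure D5:**
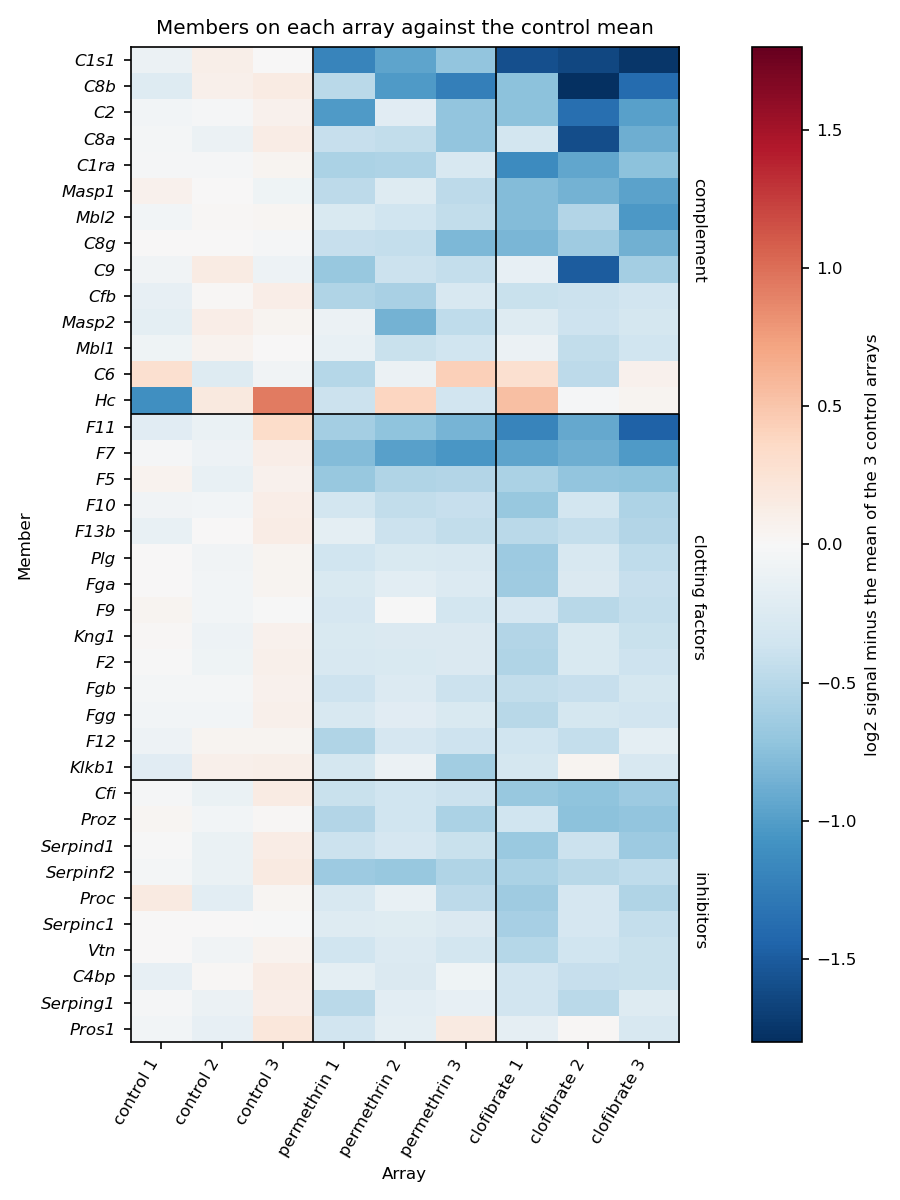
Difference of each of the 38 genes (rows, grouped as complement, clotting factors and inhibitors) on each of the 9 arrays (columns) from the control mean, in log2 units on a colour scale. All 6 treated columns are mostly below 0, and the Hc row varies within the control group.

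Spread within groups was mostly small. The median coefficient of variation over the 38 genes was 7.48% (control), 9.83% (permethrin) and 9.62% (clofibrate). The widest spreads were in terminal complement genes: Hc in controls (62.0%), and C9 (43.4%), C8a (42.1%) and C8b (38.1%) with clofibrate. With permethrin C6 varied by 33.9% and Hc by 32.1%. Outside the terminal components, C2 varied by 29.4% and Masp2 by 25.6% with permethrin, C2 by 21.6% with clofibrate and F11 by 20.9% in controls.

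Several of these genes are neighbours. In RefSeq's gene order, 14 of them form 8 adjacent pairs with 0 other protein-coding genes between: Cfb and C2, Fgg and Fga, Fga and Fgb, C8b and C8a, C1ra and C1s1, F7 and F10, F10 and Proz, and F11 and Klkb1. Calls differed between some neighbours. F11 fell with clofibrate and Klkb1 was not called, C2 fell and Cfb was not called, and in F7, F10 and Proz the permethrin values were -0.93 ± 0.11, -0.40 ± 0.10 and -0.48 ± 0.12, of which that of F7 alone passed. The differences between neighbours were not tested.

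Other genes of both pathways that are not on the list were also read. The 19 other complement genes include C1q chains, factor H relatives and receptors. With permethrin 2 were called lower (median -0.15), against 0.85% of all genes. With clofibrate 3 were called lower (median -0.033), against 3.8%. The called genes were Cpn2, a subunit of the carboxypeptidase N that trims anaphylatoxins, Cfhr2, a relative of factor H, and, with clofibrate, Clu, clusterin. Cpn2 had means of 2574 ± 117 (control), 1738 ± 190.2 (permethrin) and 1492 ± 153 (clofibrate) and fell (-0.57 ± 0.11 and -0.79 ± 0.11, adjusted p = 0.027 and 0.00183). Cfhr2 fell (-0.59 ± 0.12 and -0.74 ± 0.12, adjusted p = 0.0422 and 0.00528), and Clu (-0.37 ± 0.081, adjusted p = 0.0219) with clofibrate. When scaled to the hybridization controls none of these calls held, and the median with clofibrate turned to 0.30.

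Of 23 other clotting and fibrinolysis genes, 1 was lower and 1 higher with permethrin (median -0.074), against 0.85% and 1.28% of all genes. With clofibrate 5 were lower and 2 higher (median -0.19), against 3.8% and 3.22%. Hgfac, a protease related to factor XII, had means of 1442 ± 63.1 (control), 883 ± 50.2 (permethrin) and 841 ± 155 (clofibrate) and fell in both groups (-0.71 ± 0.13 and -0.79 ± 0.13, adjusted p = 0.0191 and 0.00437). Tfpi2, a Kunitz-type inhibitor of plasmin, went the other way: its means were 1566 ± 182 (control), 2528 ± 169.9 (permethrin) and 2488 ± 90.2 (clofibrate), a rise of 0.69 ± 0.10 (adjusted p = 0.00774) and 0.67 ± 0.10 (adjusted p = 0.00347). Anxa2, part of a cell-surface receptor for plasminogen, rose with clofibrate (1.30 ± 0.27, adjusted p = 0.0171), beside 0.99 ± 0.27 (adjusted p = 0.108) with permethrin. Scaled to the hybridization controls, Tfpi2 and Anxa2 kept these calls and Hgfac did not, and the medians turned to 0.073 with permethrin and 0.14 with clofibrate. Hrg and Pzp were the other genes called lower with clofibrate beside Lman1 and Mcfd2.

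LMAN1 and MCFD2 form the receptor that carries factors V and VIII out of the endoplasmic reticulum. Lman1 had means of 1849 ± 34.9 (control), 1825 ± 78.9 (permethrin) and 1064 ± 85.0 (clofibrate). It fell with clofibrate (-0.80 ± 0.094, adjusted p = 0.000626), was unlike permethrin in the direct comparison, 0.78 ± 0.094 (adjusted p = 0.00492), and in permethrin against control was -0.019 ± 0.094 (adjusted p = 0.956). Mcfd2, named after its values were seen, fell with clofibrate (-0.41 ± 0.093, adjusted p = 0.0263), with 0.38 ± 0.093 (adjusted p = 0.12) in the direct comparison. Under scaling to the hybridization controls the clofibrate values of Lman1 and Mcfd2 were -0.47 (adjusted p = 0.0583) and -0.075 (adjusted p = 0.798). Vitamin K dependent carboxylation prepares prothrombin, factors VII, IX and X and proteins C, S and Z for binding to membranes. Of its 5 genes, Vkorc1, the reductase that recycles vitamin K, was called lower with clofibrate, at -0.42 ± 0.10 (adjusted p = 0.0403), against 3.8% of all genes. With permethrin 0 of 5 were called by limma. At an unadjusted p under 0.05, 1 of 5 was higher with permethrin, against 6.89% of all genes. The Vkorc1 call was lost when scaled to the hybridization controls, with cyclic loess and with arrays centred on their median.

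Most plasma proteins of the liver outside both pathways were called lower with clofibrate too. Of 26, 18 were lower and 1 higher with clofibrate (median -0.42), against 3.8% and 3.22% of all genes. With permethrin 2 were lower (median -0.23), against 0.85%. Beside them, 28 of the 38 complement and coagulation genes were called lower with clofibrate (median -0.47) and 5 with permethrin (median -0.36). At an unadjusted p under 0.05, 14 of the 26 were lower with permethrin, against 8.89% of all genes, and 23 with clofibrate, against 12%. With each compound 1 was higher, against 6.89% and 9.03%. Igfals, which carries IGF complexes, fell in both (-0.83 ± 0.14 and -1.05 ± 0.14, adjusted p = 0.0151 and 0.00142), and Itih1, a heavy chain of the inter-alpha inhibitor family (-0.68 ± 0.10 and -0.55 ± 0.10, adjusted p = 0.00745 and 0.00907). Serpina6, the corticosteroid carrier, fell (-0.88 ± 0.18, adjusted p = 0.0173) with clofibrate, and Serpina7, the thyroxine carrier, rose (2.25 ± 0.43, adjusted p = 0.0111). Albumin (Alb) went from 9351 ± 274 to 8509 ± 370.2 and 7033 ± 825. The clofibrate count for this list was 7 lower with quantile normalization and 1 lower when scaled to the hybridization controls.

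Of 30 genes for liver transcription factors and inflammatory signalling, 2 were lower with permethrin (median -0.25), against 0.85% of all genes. With clofibrate 1 was lower and 1 higher (median -0.17), near the shares of 3.8% and 3.22% among all genes. Scaled to the hybridization controls, 0 were called with permethrin, so that the calls of Il6ra and Foxa3 were lost, while with clofibrate 1 was lower and 4 higher and the median turned to 0.16. Il6ra, the receptor chain through which IL-6 drives acute phase genes, fell with permethrin (-1.54 ± 0.29, adjusted p = 0.0226), and was -1.01 ± 0.29 (adjusted p = 0.0713) with clofibrate. Foxa3, a forkhead factor of hepatocytes, fell with permethrin (-1.12 ± 0.24, adjusted p = 0.0433). Esr1, the oestrogen receptor alpha, fell with clofibrate (-1.32 ± 0.19, adjusted p = 0.00212). Il1rn, the antagonist of the IL-1 receptor, rose with clofibrate (1.12 ± 0.25, adjusted p = 0.0248) and was lower with permethrin than with clofibrate (-1.45 ± 0.25, adjusted p = 0.0314). The factors named for the promoter motifs were not called: Hnf4a gave -0.023 ± 0.12 (adjusted p = 0.957) and -0.41 ± 0.12 (adjusted p = 0.0757), and Cebpa -0.57 ± 0.15 (adjusted p = 0.104) and -0.25 ± 0.15 (adjusted p = 0.424).

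Markers of liver cell types were read as a check on tissue content. Of 13 hepatocyte markers, 6 were called lower with clofibrate (median -0.41), against 3.8% of all genes. With permethrin 0 were called lower by limma (median -0.26), against 0.85%. At an unadjusted p under 0.05, 5 were lower with permethrin, against 8.89%. The clofibrate count was 2 with quantile normalization or with arrays centred on their median, and 1, with a median of -0.080, when scaled to the hybridization controls. Their summed signal was 79845 to 94052 (control), 71215 to 75878 (permethrin) and 59601 to 69896 (clofibrate), and it holds proteins such as albumin and transferrin that are plasma proteins themselves. Of 9 Kupffer cell markers 0 were called by limma in either comparison, and 0 had an unadjusted p under 0.05, with sums of 3028 to 3478 (control), 2541 to 5293 (permethrin) and 2838 to 3922 (clofibrate). Of 10 endothelial markers Fcgr2b was called lower with clofibrate (-0.83 ± 0.13, adjusted p = 0.00286), and the sums were 2811 to 3258, 2518 to 2831 and 2032 to 2355 in the same order. This call was lost when scaled to the hybridization controls. The endothelial medians were -0.20 with permethrin and -0.39 with clofibrate. At an unadjusted p under 0.05, 2 endothelial markers were lower with permethrin, against 8.89% of all genes, and 5 with clofibrate, against 12%. With either compound 0 were higher at that threshold. Of 10 stellate cell markers 0 were called by limma, with sums of 3093 to 4711, 2895 to 3205 and 2547 to 3197. The stellate medians were -0.031 with permethrin and -0.30 with clofibrate. Here 3 had an unadjusted p under 0.05 with permethrin, against 8.89% of all genes lower, and 4 with clofibrate, against 12%. All of these were lower. Only 3 of 6 cholangiocyte, 5 of 10 blood cell and 3 of 8 pancreas markers passed the filter on dim probe sets. Their summed signals were at most 92.0, 310.5 and 115, and none of them was called. At an unadjusted p under 0.05, 2 of the 3 pancreas markers were lower with permethrin and 1 with clofibrate. The part of these shifts in the results was not tested.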

How the data were processed

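Liver RNA of 9 mice was measured on Affymetrix mouse arrays. The deposited values are linear intensities per probe set; the authors used MAS5, per the submitters' processing notes, and the sources used here give no version. The mean of each array without its lowest and highest 2% of probe sets was 100.001. The descriptions of treated samples speak of rats, while organism, strain and source name give mouse. Of 45037 probe sets, 34945 had 1 symbol in GEO's platform annotation. Before taking log2, 3.35 was added to each signal, a value taken at the 20th percentile of the table. The 24546 probe sets with a signal above 15.6, the median, in at least 3 arrays were tested.

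limma 3.58.1 in R 4.3.3 fitted 1 model over 9 arrays with a variance trend on intensity. The two-sided p-values of each comparison were adjusted by Benjamini-Hochberg over all 24546, calls were made below 0.05, and the scripts were tested on simulated data. P-values measure the spread between mice, 3 per group, and this number limits the precision. Labels name no batch. No label says that equal replicate numbers mark paired mice, so arrays were not paired. Deviations of arrays with the same replicate number correlated between -0.109 and 0.113, and those with different numbers between -0.090 and 0.167.

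The members and lists were chosen with earlier results of these data known. By rule, array values are given for up to 8 called genes per class with the largest changes and for fibrinogen, and up to 3 called genes are named from each other list. C9, Hc, Mcfd2, Hrg, Pzp, Alb, Hnf4a, Cebpa and Fcgr2b were named after their values were seen. Alternatives covered offset, scaling, filter, variance model, array weights, groups in the model, choice of probe set, a replicate block and leaving out each array.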

Additional observations from a re-analysis of the deposited data

How the results depend on the processing

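Over 22 alternatives per comparison, C1s1 and F7 passed in every one against control in both comparisons, and C1ra and F11 with clofibrate, and no called gene reversed. Hc, which was not called, was below 0 in 18 of the 22 with permethrin (-0.11 in the report) and in 1 of the 22 with clofibrate (0.19 in the report). The count called lower with permethrin, 5 in the report, was 8 with cyclic loess, array weights or the mean of all probe sets, 13 with the 2 compared groups alone, 2 without an intensity trend or scaled to the hybridization controls, and 9 with arrays centred on the bright genes, which was chosen after seeing the data. The median difference of permethrin moved to -0.30 with arrays centred on their median and to -0.21 with the hybridization controls. The clofibrate count of 28 was 16 with quantile normalization or no filter, 19 with cyclic loess, 9 without a trend and 4 with the hybridization controls. Its median was -0.35 with quantile normalization, -0.35 with cyclic loess and -0.14 with the hybridization controls. Leaving out each array gave 3 to 4 calls with permethrin (3 without control replicate 1 or 3) and 13 to 28 with clofibrate (13 without control replicate 3 or clofibrate replicate 3, 18 without control replicate 1). The medians then lay between -0.40 and -0.31 and between -0.51 and -0.43. For permethrin against clofibrate the 1 gene called higher became 0 with cyclic loess, the hybridization controls, no filter, no trend, the 2 groups alone or the replicate block, 3 with array weights, and 0 to 1 without each array. Its median of 0.14 became 0.061 with quantile normalization, 0.051 with cyclic loess and -0.043 with the hybridization controls. The replicate block gave 5 and 24 genes called lower with permethrin and clofibrate, and no label says that equal numbers mark paired mice. The cause of these moves was not tested. Groups of 3 mice limit the precision.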
